A study of Mus musculus with 20 samples.

Results

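Old mice that had been returned to a normal diet after caloric restriction were set against old mice still on restriction, in fibroblasts sorted from the dermis. Old CR-ND mice, the refed group, went through 7 months of 30% caloric restriction and then ate a normal diet (ND) for 2 months. Old CR mice, the restricted group, ate the normal diet for 2 months and then stayed on the same restriction for 7 months until collection. Every mouse was female, and the old mice began the diets aged 9 months, with collection at 18 months. The comparison used the 10 arrays of these groups, 5 each, out of 20 in the series, and covered every gene measured. The other 10 arrays, 5 of Old ND mice that ate the normal diet for all 9 months and 5 of Young ND mice, given as 4 weeks old with 4 weeks on the normal diet, shared the estimate of spread. Because both groups had the same months of each diet in opposite order, current diet, time since restriction and age at restriction cannot be told apart here.

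Restriction lowers the supply of fuel and of circulating growth factors, and refeeding restores it. Cells match their sterol supply through SREBP2, a membrane-bound transcription factor that is released when the endoplasmic reticulum is short of cholesterol and then switches on the enzymes of cholesterol synthesis. Insig1 holds SREBP2 back when sterols are plentiful and is itself an SREBP target. Dermal fibroblasts secrete collagens and other matrix proteins, whose folding in the endoplasmic reticulum depends on chaperones of the unfolded protein response.

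Each sample was RNA of 10000 cells positive for Pdgfra and CD34 and negative for CD45, CD117, CD24, CD31 and EpCAM, amplified over 20 cycles before hybridization. Values are log2 array levels, and differences are Old CR-ND minus Old CR on the log2 scale ± the standard error of limma, with n = 5 arrays in each group. Precision is limited by how few arrays there are, and the standard error had a median of 0.0965 over the genes. In RNA of sorted cells, fewer cells of a type and less RNA per cell cannot be told apart. Cd34 was bright in all 10 arrays (11.06 to 11.44). Ptprc, which encodes CD45, and Kit, which encodes CD117, stayed near the bottom of the scale (3.18 to 3.36 and 3.30 to 3.49). Pdgfra read 5.63 to 6.53, around the median gene level of 5.88. Its range overlapped those of Pecam1, which encodes CD31 (5.16 to 5.78), and Cd24a (4.58 to 5.96), and Epcam read 4.83 to 5.49. Levels of the RNA thus did not separate all positive from all negative markers. None of the 7 sorting markers differed past the threshold, and the largest difference among them was that of Cd24a (0.60 ± 0.21, adjusted p = 0.284). The array numbers form 2 runs, 4 Old CR and 3 Old CR-ND arrays fall in the first, and 1 and 2 in the second. With the groups held constant 2934 genes differed between the runs, so values from each run alone are given for the leading genes and lists.

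Promoter windows of genes from the sterol and the endoplasmic reticulum groups are shown first, since the members of each group are described together in what follows. They come from RefSeq on GRCm38.p6 and run from 250 bases before to 50 bases after the gene's start, on the gene's strand. Of the 57 genes that passed the test, 44 had a window in the table. Capitals mark CCAAT on either strand for Nsdhl and the same plus CACGTG for Insig1, the letters of the CCAAT box and of an E-box. In Creld2 they mark the endoplasmic reticulum stress element (CCAAT, 9 bases of any kind, CCACG), which lies on the opposite strand, and in Herpud1 the second such element (ATTGG, 1 base of any kind, CCACG). The element of Creld2 contains a CCAAT box, and that of Herpud1 contains one read on the other strand.
Nsdhl, chrX:72918271-72918570, plus strand: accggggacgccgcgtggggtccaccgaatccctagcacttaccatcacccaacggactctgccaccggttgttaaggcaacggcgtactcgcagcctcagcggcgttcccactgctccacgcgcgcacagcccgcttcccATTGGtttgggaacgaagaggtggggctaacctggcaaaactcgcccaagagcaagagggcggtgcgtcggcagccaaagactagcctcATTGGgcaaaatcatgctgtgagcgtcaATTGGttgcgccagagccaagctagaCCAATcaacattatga
Insig1, chr5:28071162-28071461, plus strand: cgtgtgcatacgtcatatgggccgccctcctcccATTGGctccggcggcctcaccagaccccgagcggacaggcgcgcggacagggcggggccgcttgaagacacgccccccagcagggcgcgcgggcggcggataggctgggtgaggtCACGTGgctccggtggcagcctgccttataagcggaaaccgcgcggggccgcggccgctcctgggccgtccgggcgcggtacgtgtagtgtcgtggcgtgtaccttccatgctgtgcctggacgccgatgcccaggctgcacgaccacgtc
Creld2, chr15:88819396-88819695, plus strand: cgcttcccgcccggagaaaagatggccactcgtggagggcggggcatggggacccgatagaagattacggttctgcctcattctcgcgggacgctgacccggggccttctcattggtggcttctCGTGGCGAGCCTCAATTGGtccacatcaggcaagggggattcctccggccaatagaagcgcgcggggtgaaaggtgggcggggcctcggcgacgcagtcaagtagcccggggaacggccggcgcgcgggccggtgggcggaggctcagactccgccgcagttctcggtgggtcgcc
Herpud1, chr8:94386179-94386478, plus strand: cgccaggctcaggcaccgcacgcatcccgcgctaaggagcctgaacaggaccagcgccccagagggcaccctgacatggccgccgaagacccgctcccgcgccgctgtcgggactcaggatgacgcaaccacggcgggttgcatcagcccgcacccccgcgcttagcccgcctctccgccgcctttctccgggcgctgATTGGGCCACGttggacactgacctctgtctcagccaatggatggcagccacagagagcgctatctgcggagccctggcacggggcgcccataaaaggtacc

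CCAAT occurred on either strand in 37.4% of all 32851 windows and in the windows of all 13 cholesterol synthesis genes that had an entry. Nsdhl held 4 copies. CACGTG was found in 7.15% of all windows and in 3 of those 13. The core of the sterol element, TCACNCCAC, was in 1.24% of all windows and, in the list, in that of Hmgcs1 alone. The endoplasmic reticulum stress element was in 0.119% of all windows and in 7 of the 25 windows of the unfolded protein response list (Calr, Canx, Dnajc3, Hsp90b1, Hspa5, Pdia6 and Syvn1), and the second element was in 0.0365% and in 2 of 25 (Dnajb11 and Herpud1). A match describes the letters of the window and is not a measured binding site.

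Between the refed and the restricted mice 57 of 17097 genes passed an adjusted p of 0.05 in limma's test, 0.333% of those tested. In the refed mice 21 were higher (0.123%) and 36 were lower (0.211%), and the smallest of these differences was 0.39. Only 2 of the rises and 6 of the falls reached 2-fold, while the median difference over all genes was -0.006. The falls were led by Ctla2a, Igfbp3 and Lgr5 and held 5 genes of cholesterol synthesis and sterol sensing. The rises were led by Ces2g and Cacna2d3 and held genes of the secreted matrix and of protein folding in the endoplasmic reticulum. The 5 arrays of 1 group all lay above or all below those of the other for 45 of the 57 genes, and for 371 of all genes (2.17%). An unadjusted p under 0.05 was found for 1674 genes.

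**Figure D1:**
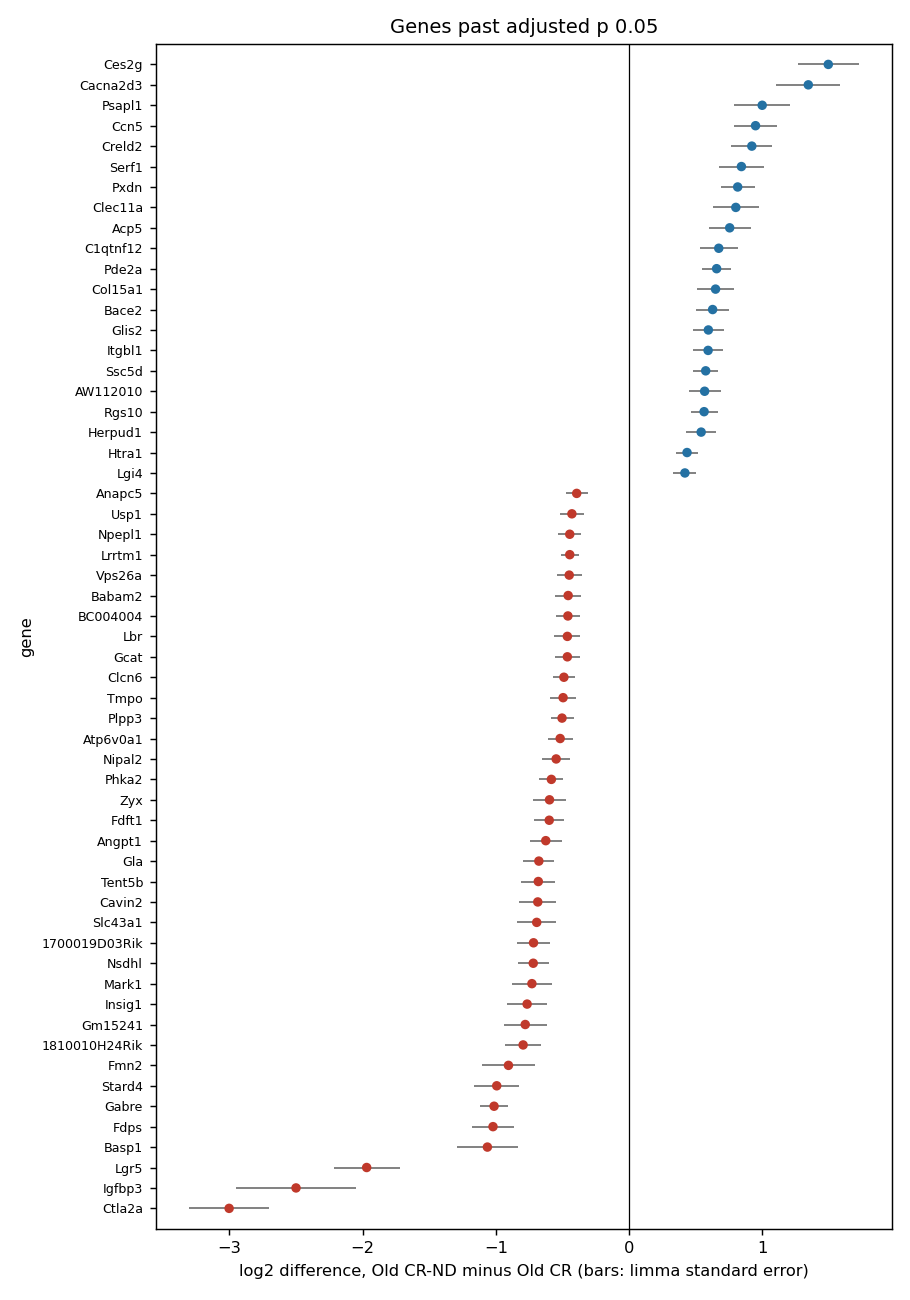
Log2 difference between Old CR-ND and Old CR (horizontal axis) for the 57 genes past adjusted p 0.05, with bars for the standard error of limma and 5 arrays per group. Ctla2a, Igfbp3 and Lgr5 lie far to the left of the other falls, and Ces2g and Cacna2d3 lead the 21 rises.

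All 57 differences had the same sign in either run alone, and all 57 passed with the run as a block, where 120 genes passed in total (47 higher, 73 lower). The genes were chosen on these same arrays and the later run holds 1 Old CR array, so the shared sign is not independent support. The sizes of the 57 differences varied between the runs, with 20 larger in the earlier run by more than 1.5 times and 1 in the later run. The ratio exceeded 2 for 8 genes, which were Nsdhl and Creld2, described further on, Phka2 (-0.66 and -0.23), Zyx (-0.65 and -0.24), Glis2 (0.68 and 0.27), Basp1 (-1.23 and -0.54), Lgi4 (0.46 and 0.21) and Tmpo (-0.55 and -0.26). The count moved with single arrays: 17 genes passed without Old CR replicate 3, 22 without Old CR-ND replicate 5, 24 without Old CR-ND replicate 2, 28 without Old CR replicate 2, 29 without Old CR replicate 4, 29 without Old CR-ND replicate 4, 35 without Old CR replicate 1, 62 without Old CR-ND replicate 1, 77 without Old CR-ND replicate 3 and 110 without Old CR replicate 5. The 17 genes that passed in each of the 10 fits without 1 array were 12 falls (Ctla2a, Lgr5, Fdps, Gabre, Nsdhl, Gla, Phka2, Plpp3, Clcn6, Lrrtm1, 1810010H24Rik and 1700019D03Rik) and 5 rises (Ces2g, Creld2, Pxdn, Pde2a and Ssc5d). Each of the other 40 calls ended without Old CR replicate 3 and most ended without other arrays as well, with adjusted p no higher than 0.154. Fitted on the 10 arrays alone, 75 genes passed, among them 37 of the 57. Averaging the probe sets of each gene gave 61, among them 43 of the 57.

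Old ND mice give the level without restriction. The comparisons of Old CR with Old ND and of Old CR-ND with Old CR share the Old CR arrays, so a fall in one and a rise in the other are not independent, and the values are given side by side. Old CR differed from Old ND in 409 genes (2.39%) and Old CR-ND differed from Old ND in 1 gene (0.00585%). Of the 57 genes, 33 of the 36 falls had passed upwards from Old ND to Old CR (1.57% of all genes did), and 12 of the 21 rises had passed downwards (0.819%). None of the 57 passed between Old CR-ND and Old ND.

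Genes of sterol synthesis were lower in the refed mice. Fdps, Fdft1 and Nsdhl fell, which is 3 of 16 measured genes of cholesterol synthesis against 0.211% of all genes, and 14 of the 16 differences were below 0 against 51.8% of all genes. Their median was -0.47, and -0.48 and -0.29 in the earlier and the later run. The mean log2 level over the 16 genes was 6.34 to 6.64 in the restricted arrays and 6.02 to 6.22 in the refed arrays, which do not overlap, and 5.90 to 6.30 in Old ND. Of 14 genes of sterol sensing and transport, Stard4 and Insig1 fell, while the median of that list was -0.08. Among the called genes, Fdps, Fdft1, Nsdhl and Stard4 had been brought up by earlier results of these data. Both lists were chosen with those results known, so the excess over all genes is a description and not a test.

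Fdps makes farnesyl diphosphate, the last shared precursor of sterols and of the lipids that anchor proteins to membranes. Its level was 7.12, 6.75, 6.75, 7.05 and 6.28 in Old CR and 6.11, 5.77, 5.69, 5.50 and 5.77 in Old CR-ND, so every refed array lay below every restricted array. Fdps fell by 1.02 ± 0.15 (2.03-fold, adjusted p = 0.0062), and the runs alone gave -1.06 and -0.65. Fdft1 is squalene synthase, the first enzyme that commits the precursor to sterols. Old CR arrays read 6.71, 6.19, 6.66, 6.50 and 6.17 and Old CR-ND arrays 6.09, 5.90, 5.94, 5.72 and 5.58, again without overlap (-0.60 ± 0.11, adjusted p = 0.0226). This call ended without any 1 of 6 arrays (Old CR replicates 1, 3 and 4 and Old CR-ND replicates 2, 4 and 5, adjusted p 0.0518 to 0.0859).

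Nsdhl acts later, in the removal of the methyl groups of lanosterol. It read 7.17, 7.10, 7.16, 7.25 and 6.70 in Old CR and 6.63, 6.15, 6.15, 6.58 and 6.27 in Old CR-ND. The groups did not overlap, although the lowest restricted array lay close to the highest refed array. Nsdhl fell by 0.72 ± 0.12 (adjusted p = 0.0096), and the runs alone gave -0.86 and -0.28.

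Several enzymes did not pass on the probe set used. Idi1, which isomerizes the isoprene unit, differed by -0.66 ± 0.18 (adjusted p = 0.119), and Sc5d, a late sterol desaturase, by -0.75 ± 0.21 (adjusted p = 0.144). All Idi1 levels in Old CR-ND (5.69 to 6.20) were below those in Old CR (6.32 to 6.89). When every probe set was tested, another probe set of Idi1 passed (-1.26, adjusted p = 0.0045) and so did another of Sc5d (-1.12, adjusted p = 0.0032). The means of their probe sets passed as well, with -0.96 for Idi1 (adjusted p = 0.0130) and -0.88 for Sc5d (adjusted p = 0.0435), and blocking on the run Sc5d also passed (-0.64, adjusted p = 0.0269). The exceptions to the shared sign were Hmgcs1 (0.01 ± 0.10), which makes the first committed intermediate and whose sign turned without any 1 of 4 arrays and in the later run, and Msmo1 (0.08 ± 0.07), which came to 0.00 with the mean of its probe sets. Both were measured by dim probe sets, at 3.89 to 4.51 for Hmgcs1 and 4.53 to 4.78 for Msmo1, below the median gene level of 5.88. These 4 genes were named after their values were seen.

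Stard4, a carrier that moves sterols between membranes, read 6.08, 5.70, 6.27, 6.12 and 5.62 in Old CR and 5.56, 4.82, 4.82, 4.58 and 5.04 in Old CR-ND. The groups were separate by a narrow margin. Stard4 fell by 0.99 ± 0.17 (adjusted p = 0.0096), all 3 of its probe sets gave a difference below 0, and their mean gave -0.60. The call ended without Old CR replicate 3 (adjusted p = 0.0532). Insig1, the brake on SREBP2, read 10.57, 10.25, 10.36, 10.42 and 10.32 in Old CR and 9.96, 9.71, 9.24, 9.68 and 9.50 in Old CR-ND. No refed array reached the restricted range, and Insig1 fell by 0.77 ± 0.15 (adjusted p = 0.0303). This call held without Old CR replicate 5 and without Old CR-ND replicate 1 and ended without any 1 of the other 8 arrays (adjusted p 0.0558 to 0.0970). Srebf2, which encodes SREBP2 and was named after its values were seen, differed by -0.65 ± 0.18 and did not pass (adjusted p = 0.147).

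**Figure D2:**
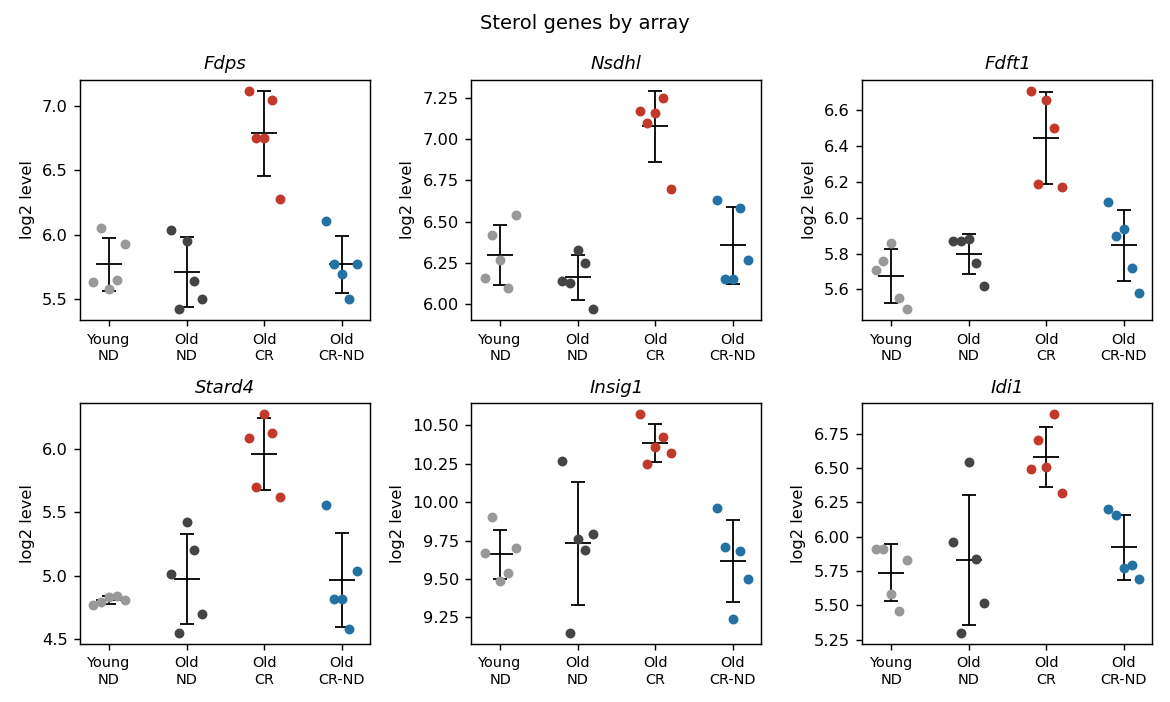
Log2 levels (vertical axis) of 6 sterol genes in the 5 arrays of each of the 4 groups, with the mean and SD as bars. In each of the 6 panels the Old CR-ND points lie below all Old CR points and among or near the Old ND points.

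Levels of these genes in the refed mice were close to those on the normal diet throughout. Fdps in Old CR exceeded Old ND by 1.08 ± 0.15 (adjusted p = 0.0014), and Old CR-ND and Old ND differed by 0.06 ± 0.15. For Nsdhl the same differences were 0.91 ± 0.12 and 0.19 ± 0.12, and for Stard4 they were 0.98 ± 0.17 and -0.01 ± 0.17. Insig1 gave 0.65 ± 0.15 and -0.11 ± 0.15. A p that misses the threshold does not show that refed and never restricted mice were alike. In the fatty acid synthesis list, the branch driven mainly by SREBP1, 0 of 18 genes passed, and its lowest member by p was the desaturase Fads1 (-0.91 ± 0.23, adjusted p = 0.0921), which passed once the run was a block (-0.79, adjusted p = 0.0205) but not with the mean of its 2 probe sets (-0.47, adjusted p = 0.159), since the other gave -0.03.

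Ctla2a, an inhibitor of cathepsin-type cysteine proteases, fell most. It lies at chr13:60934155-60936625 (GRCm38.p6) and belongs to a family of near-identical sequences that the array may not tell apart. Old CR arrays read 9.84, 9.71, 10.74, 10.88 and 9.00 and Old CR-ND arrays 6.28, 6.87, 7.53, 7.85 and 6.63. The highest refed array stayed more than 1 log2 unit below the lowest restricted array, and Ctla2a fell by 3.0 ± 0.30 (8.01-fold, adjusted p = 4.74e-05). Old ND lay at 7.15 ± 0.07 (SD), within the refed range, and Young ND at 6.07 ± 0.29 (SD). Its probe sets gave differences of -3.0 and -2.46, and the runs alone gave -3.40 and -1.76. Ctla2b, the related gene measured by its own probe set, was dim and differed by -0.06 ± 0.10 (adjusted p = 0.893), a sign that turned in the later run.

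Over the 10 arrays the genes whose levels followed Ctla2a most closely were Abcc4, an exporter of organic anions (Pearson r = 0.978), Elac1, a tRNA-processing nuclease (r = 0.969), and Gabre, the epsilon subunit of the GABA-A receptor (r = 0.959). These values describe likeness over arrays of groups that differ in Ctla2a and carry no test. Gabre itself fell by 1.01 ± 0.11 (2.02-fold, adjusted p = 4.74e-05). Its levels were 5.80, 5.66, 5.88, 5.95 and 5.67 in Old CR and 4.55, 4.97, 4.99, 4.77 and 4.61 in Old CR-ND, without overlap. Elac1 (-0.58 ± 0.13, adjusted p = 0.0626) and Abcc4 (-0.61 ± 0.19, adjusted p = 0.213) did not pass. Blocking on the run, Elac1 passed (-0.54, adjusted p = 0.0393) while the mean of its 3 probe sets gave -0.25 (adjusted p = 0.231).

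Igfbp3 binds insulin-like growth factors in the circulation and around cells and limits their access to the receptor. It read 9.72, 9.86, 9.57, 8.55 and 8.65 in Old CR and 5.94, 6.93, 8.62, 6.09 and 6.27 in Old CR-ND. Old CR-ND replicate 3 lay within the restricted range, and the other refed arrays were far below it. Igfbp3 fell by 2.5 ± 0.45 (5.66-fold, adjusted p = 0.0142), and -2.26 and -2.47 were found in the runs alone. The call ended without any 1 of Old CR replicates 2 and 3 and Old CR-ND replicates 4 and 5 (adjusted p 0.0517 to 0.0612). In the list of the IGF and insulin axis 1 of 18 genes fell (0.211% of all genes did) and 1 rose (0.123% of all genes). The gene that rose was Htra1, a secreted protease that cleaves IGF binding proteins (0.43 ± 0.09, adjusted p = 0.0273).

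Igfbp4, a binding protein that holds back IGF action in tissue, differed the other way by 1.80 ± 0.45 and did not pass (adjusted p = 0.0889), with 5.72 to 7.69 in Old CR and 7.85 to 9.45 in Old CR-ND. These ranges did not overlap. The growth factor Igf2 differed by -0.59 ± 0.17 (adjusted p = 0.171), with 9.58 to 10.33 in Old CR and 9.11 to 9.53 in Old CR-ND. Old ND read 9.69 to 10.28, so the refed arrays lay below all arrays of both other old groups.

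Lgr5, a receptor for R-spondins that strengthens Wnt signalling, was the only called gene among 28 of the Wnt list. Over all genes 0.211% were called lower, and earlier results of these data had brought Lgr5 up. It read 8.79, 9.58, 8.78, 8.48 and 8.21 in Old CR and 6.24, 7.15, 7.06, 7.06 and 6.48 in Old CR-ND. The groups were separate by about 1 log2 unit, and Lgr5 fell by 1.97 ± 0.25 (3.92-fold, adjusted p = 0.00071). Averaged over its 2 probe sets, Lgr5 differed by -1.25 and still passed (adjusted p = 0.0036). Old CR exceeded Old ND by 1.64 ± 0.25, and Old CR-ND and Old ND differed by -0.33 ± 0.25.

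**Figure D3:**
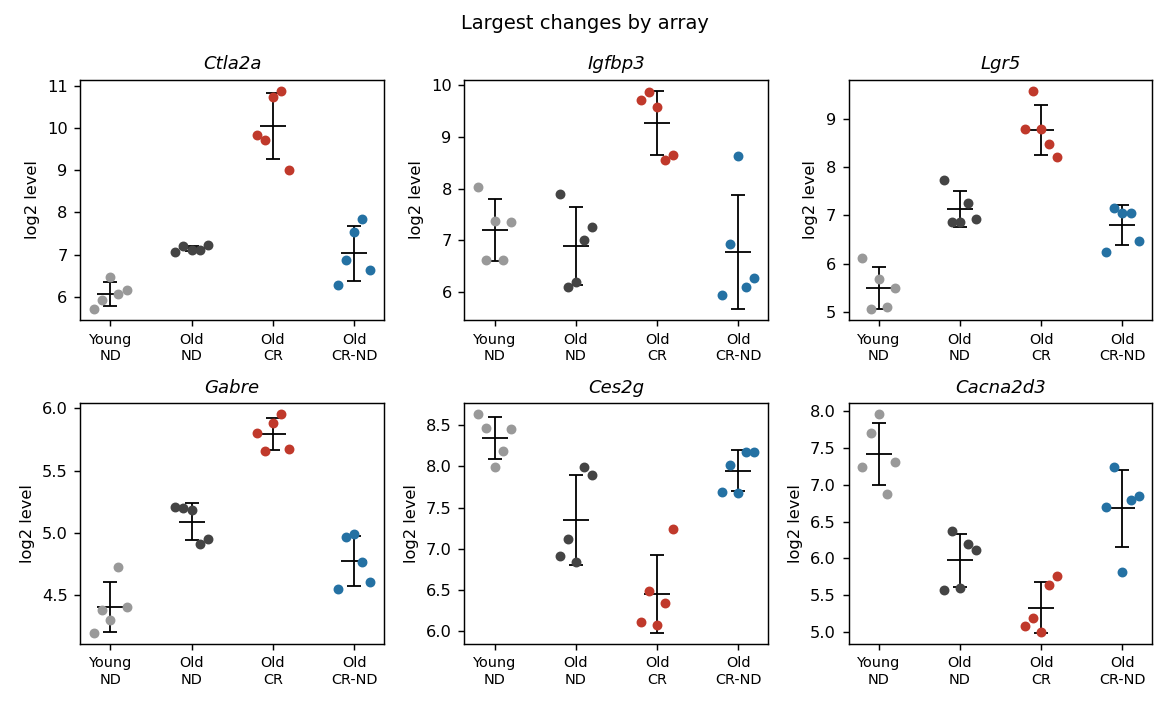
Log2 levels (vertical axis) of the 6 genes Ctla2a, Igfbp3, Lgr5, Gabre, Ces2g and Cacna2d3 in the 5 arrays of each of the 4 groups, with the mean and SD as bars. The Old CR points stand above Old CR-ND for the first 4 genes, except for 1 high Old CR-ND point of Igfbp3, and below Old CR-ND for Ces2g and Cacna2d3.

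Other falls were found in genes of lysosomes and endosomes. Gla, the lysosomal alpha-galactosidase, read 8.31, 8.38, 8.31, 8.28 and 8.37 in Old CR and 7.85, 7.81, 7.53, 7.68 and 7.39 in Old CR-ND. The groups did not overlap, and Gla fell by 0.68 ± 0.12 (adjusted p = 0.0096), although averaged over its 2 probe sets it did not pass (-0.43, adjusted p = 0.23). Clcn6, a chloride and proton exchanger of late endosomes, fell by 0.49 ± 0.08 (adjusted p = 0.0096), from 8.23 to 8.38 in Old CR to 7.73 to 7.89 in Old CR-ND. Atp6v0a1, a membrane subunit of the proton pump that acidifies these organelles, fell by 0.52 ± 0.09 (adjusted p = 0.0142), and Vps26a of the retromer, which returns receptors from endosomes, by 0.45 ± 0.09 (adjusted p = 0.0392). The autophagy and lysosome list as a whole had 0 of 27 genes called, a median of -0.04, and 12 of 27 differences above 0. All refed arrays lay above the restricted ones for 1 of the 27, Hexa (10.69 to 10.99 against 10.30 to 10.65), and below for 1. Over all genes those shares were 0.994% and 1.18%. The Atp6v0a1 call ended with the mean of its 4 probe sets (adjusted p = 0.084) and without Old CR replicate 3 or 4 or Old CR-ND replicate 4 or 5, and that of Vps26a held only without Old CR replicate 5, Old CR-ND replicate 1 or Old CR-ND replicate 3 (adjusted p up to 0.0947 otherwise).

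Phka2, a regulatory subunit of the kinase that activates glycogen phosphorylase, read 8.14, 8.06, 8.08, 8.28 and 7.65 in Old CR and 7.33, 7.58, 7.54, 7.39 and 7.45 in Old CR-ND. It fell by 0.58 ± 0.09 (adjusted p = 0.0062) without overlap. The noncoding RNA Gm15241, which lies next to it (chrX:160488517-160499818, with Phka2 at chrX:160501904-160598879, GRCm38.p6), fell by 0.78 ± 0.16 (adjusted p = 0.0425). Plpp3, a phosphatase at the cell surface that degrades lysophosphatidic acid, was among the brighter genes at 11.57 to 11.88 in Old CR and 11.07 to 11.47 in Old CR-ND, and fell by 0.50 ± 0.09 (adjusted p = 0.0096). The Gm15241 call held only without Old CR replicate 5, Old CR-ND replicate 1 or Old CR-ND replicate 3, with adjusted p up to 0.126 otherwise.

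At the nuclear envelope, Tmpo, which encodes lamina-associated polypeptides, fell by 0.50 ± 0.10 (adjusted p = 0.024), and Lbr, the lamin B receptor, which also has a sterol reductase domain, fell by 0.46 ± 0.10 (adjusted p = 0.0444). Lbr read 5.81 to 6.02 in Old CR and 5.35 to 5.67 in Old CR-ND, and Tmpo 5.82 to 6.33 and 5.42 to 5.68. Neither gene overlapped between the groups. Of genes at the membrane and the cytoskeleton, Basp1 fell by 1.06 ± 0.23 (2.09-fold, adjusted p = 0.0499), the actin nucleator Fmn2 by 0.91 ± 0.20 (adjusted p = 0.0499), the microtubule-affinity kinase Mark1 by 0.73 ± 0.15 (adjusted p = 0.0372), the caveolar coat gene Cavin2 by 0.69 ± 0.14 (adjusted p = 0.0331) and the focal adhesion gene Zyx by 0.60 ± 0.12 (adjusted p = 0.0392). The ranges of Basp1, Mark1, Cavin2 and Zyx overlapped between the groups. These calls were the less stable ones: that of Lbr held only without Old CR-ND replicate 4, Fmn2 only without Old CR-ND replicate 3, Basp1 only without Old CR replicate 5 or Old CR-ND replicate 4, Mark1 only without Old CR replicate 1 or Old CR-ND replicate 3, and Cavin2 only without Old CR replicate 1, Old CR replicate 5 or Old CR-ND replicate 3. The Zyx call held without Old CR replicate 5, Old CR-ND replicate 1 or Old CR-ND replicate 3, the Tmpo call also without Old CR replicate 1, and across these 7 genes adjusted p reached 0.154. Averaged over their probe sets, the calls of Fmn2 (adjusted p = 0.084), Mark1 (adjusted p = 0.0805), Zyx (adjusted p = 0.0537) and Tmpo (adjusted p = 0.0514) ended, and Cavin2 differed by -0.37.

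Angpt1, the ligand of the Tie2 receptor on vessels, fell by 0.63 ± 0.12 (adjusted p = 0.024), with 6.23 to 6.70 in Old CR and 5.54 to 6.26 in Old CR-ND, which overlap at 1 array. Slc43a1, a transporter of large neutral amino acids, fell by 0.69 ± 0.15 (adjusted p = 0.0444), and Tent5b, a poly(A) polymerase, by 0.68 ± 0.13 (adjusted p = 0.019). Gcat, a mitochondrial enzyme of threonine breakdown, fell by 0.46 ± 0.10 (adjusted p = 0.0404). Smaller falls came from the deubiquitinase Usp1 (-0.43), Babam2 of the BRCA1-A complex (-0.46), Anapc5 of the anaphase-promoting complex (-0.39), the magnesium transporter-like Nipal2 (-0.55) and the aminopeptidase-like Npepl1 (-0.45). Lrrtm1, a leucine-rich repeat membrane protein known from synapses, fell by 0.45 ± 0.07 at dim levels (3.38 to 3.75 and 3.0 to 3.24), and the clone genes 1810010H24Rik, 1700019D03Rik and BC004004 fell by 0.80, 0.72 and 0.46. Except for Lrrtm1, 1810010H24Rik and 1700019D03Rik these calls ended without Old CR replicate 3 and, apart from Angpt1, also without Old CR-ND replicate 5, most of them without further arrays too, with adjusted p up to 0.147 over the arrays left out. With the mean of their probe sets Gcat, Babam2, Usp1 and BC004004 did not pass.

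Markers of keratinocytes, a cell type the sort was set to remove, were higher in sign in the refed mice, as were the rises that follow. Of 15 measured keratinocyte markers 14 differences were above 0, against 48.0% of all genes, and none passed, with a median of 0.18. That median was 0.105 without Old CR-ND replicate 4, 0.33 without either Old CR-ND replicate 2 or Old CR replicate 5, 0.30 without Old CR replicate 2 and 0.29 without Old CR-ND replicate 1. The mean log2 level over the list was 6.18 to 6.70 in Old CR and 6.30 to 7.17 in Old CR-ND, and 5.61 to 7.54 in Old ND. Krt14 read 6.32 to 6.80 in Old CR and 6.89 to 8.14 in Old CR-ND and differed by 0.95 ± 0.37 (adjusted p = 0.364), Krt79 by 0.85 ± 0.22 (adjusted p = 0.0947) and Krt5 by 0.67 ± 0.46 (adjusted p = 0.695). Of 15 macrophage and dendritic cell markers 13 were above 0, none passed, the median was 0.11 and the mean level over the list was 4.80 to 4.92 in Old CR and 4.95 to 5.15 in Old CR-ND. Of 8 tendon and fascia markers 5 were above 0, none passed, and the median was 0.275, which fell to 0.15, 0.14 and 0.165 without Old CR-ND replicates 1, 2 and 4. Their mean level was 5.46 to 5.69 in Old CR and 5.52 to 6.32 in Old CR-ND, which overlap. Of 8 melanocyte markers 7 were above 0 (median 0.07), and of 9 pericyte and smooth muscle markers 7 were (median 0.03), with none passing. Against those signs, Mitf of the melanocyte list differed by -0.61, although its other probe set gave 0.04. Kcnj8 of the pericyte list differed by -0.70. All refed arrays lay below the restricted ones for Mitf (7.52 to 8.44 against 8.45 to 8.67) and Kcnj8 (6.77 to 7.77 against 7.85 to 8.22). The part of these cell types in the rises was not tested.

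The rises included genes of secreted matrix. Pxdn, a peroxidase that crosslinks basement membrane collagen, read 6.63, 7.14, 6.93, 7.17 and 7.28 in Old CR and 7.64, 7.68, 8.04, 7.99 and 7.87 in Old CR-ND. All refed arrays were above all restricted arrays, and the rise was 0.81 ± 0.13 (adjusted p = 0.0072). Ccn5, a matricellular protein of the CCN family, read 6.94, 6.61, 6.57, 6.98 and 7.01 and then 7.67, 7.77, 7.42, 8.01 and 7.98, also without overlap (0.95 ± 0.16, adjusted p = 0.0097). Its call ended without Old CR replicate 3 (adjusted p = 0.0534). Both genes lay at Old ND levels after refeeding, with differences from Old ND of 0.08 ± 0.13 for Pxdn and -0.01 ± 0.16 for Ccn5. Ccn5 was the only called gene of 30 elastic fibre and matricellular genes, against 0.123% of all genes called higher. Of those 30 differences 18 were above 0, against 48.0% of all genes, with a median of 0.11. Of 11 small leucine-rich proteoglycans 7 were above 0 (median 0.08), and of 22 collagen processing genes 18 were (median 0.13), with none passing.

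Col15a1, a collagen next to basement membranes, read 9.96, 9.81, 9.60, 9.99 and 9.98 in Old CR and 10.70, 10.96, 10.08, 10.39 and 10.45 in Old CR-ND. It rose by 0.65 ± 0.14 (adjusted p = 0.0444) without overlap. It was the only called gene among 17 collagens outside the fibrillar group, against 0.123% of all genes called higher, while 15 of the 17 differences were above 0 against 48.0% of all genes and their median was 0.39. The median was 0.47 and 0.23 in the runs alone and 0.21 without Old CR-ND replicate 1. Of 10 fibrillar collagens none passed and the median was 0.13, with Col5a3 lowest in p (0.85 ± 0.20, adjusted p = 0.0626), which passed when the run was blocked on (0.79, adjusted p = 0.0457). Col1a1 (0.10 ± 0.08) and Col3a1 (0.14 ± 0.07) were bright and did not pass. The Col15a1 call held only without Old CR replicate 5 or Old CR-ND replicate 3 (adjusted p up to 0.125 otherwise). Earlier results of these data had brought this gene up.

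Further secreted proteins rose by less. The soluble scavenger receptor Ssc5d read 7.44, 7.46, 7.34, 7.66 and 7.49 in Old CR and 8.19, 8.09, 7.90, 7.96 and 8.12 in Old CR-ND (0.57 ± 0.09, adjusted p = 0.0096), with every refed array above the restricted ones. The integrin-like Itgbl1 rose by 0.59 ± 0.11 (adjusted p = 0.0191), the growth factor Clec11a by 0.80 ± 0.17 (adjusted p = 0.0482), the adiponectin-related C1qtnf12 by 0.67 ± 0.14 (adjusted p = 0.0444) and Lgi4, a ligand known from Schwann cell development, by 0.42 ± 0.09 (adjusted p = 0.0392). Those 4 and Htra1 did not overlap between the groups either. Their calls ended without Old CR replicates 1, 2 and 3 and Old CR-ND replicates 2, 4 and 5 each, with adjusted p up to 0.146, and C1qtnf12 ended with the mean of its 4 probe sets (adjusted p = 0.0805).

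Creld2 and Herpud1, whose promoters are shown above, are induced when unfolded protein builds up in the endoplasmic reticulum. Creld2 read 8.90, 8.55, 8.43, 8.61 and 9.24 in Old CR and 9.42, 10.04, 9.46, 9.68 and 9.73 in Old CR-ND. The groups did not overlap, and the rise was 0.92 ± 0.15 (adjusted p = 0.0096), and the runs alone gave 1.02 and 0.47. Herpud1, a membrane component of the degradation of misfolded protein, read 9.31, 9.40, 9.37, 9.13 and 9.42 and then 9.63, 9.87, 9.86, 10.02 and 9.95. It rose by 0.54 ± 0.12 (adjusted p = 0.0444), a call that held only without Old CR replicate 5 or Old CR-ND replicate 1 (adjusted p up to 0.147 otherwise) and that ended with the mean of its 2 probe sets (0.54, adjusted p = 0.119).

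Herpud1 was the only called gene of 30 in the unfolded protein response list, in which Creld2 is not a member. Over all genes 0.123% were called higher. The list had 24 differences above 0 against 48.0% of all genes and a median of 0.17, and of 0.16 and 0.07 in the runs alone. The secreted chaperone-like Manf differed by 0.62 ± 0.14 without overlap and just missed the threshold (adjusted p = 0.0532; 0.0374 when blocking on the run), and Sdf2l1, a partner of the chaperone BiP, differed by 0.52 ± 0.14 (adjusted p = 0.105). Both were named after their values were seen. Old CR was below Old ND for Creld2 (-0.80 ± 0.15, adjusted p = 0.0088) and Herpud1 (-0.47 ± 0.12, adjusted p = 0.0315), while Old CR-ND and Old ND differed by 0.12 ± 0.15 and 0.07 ± 0.12.

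**Figure D4:**
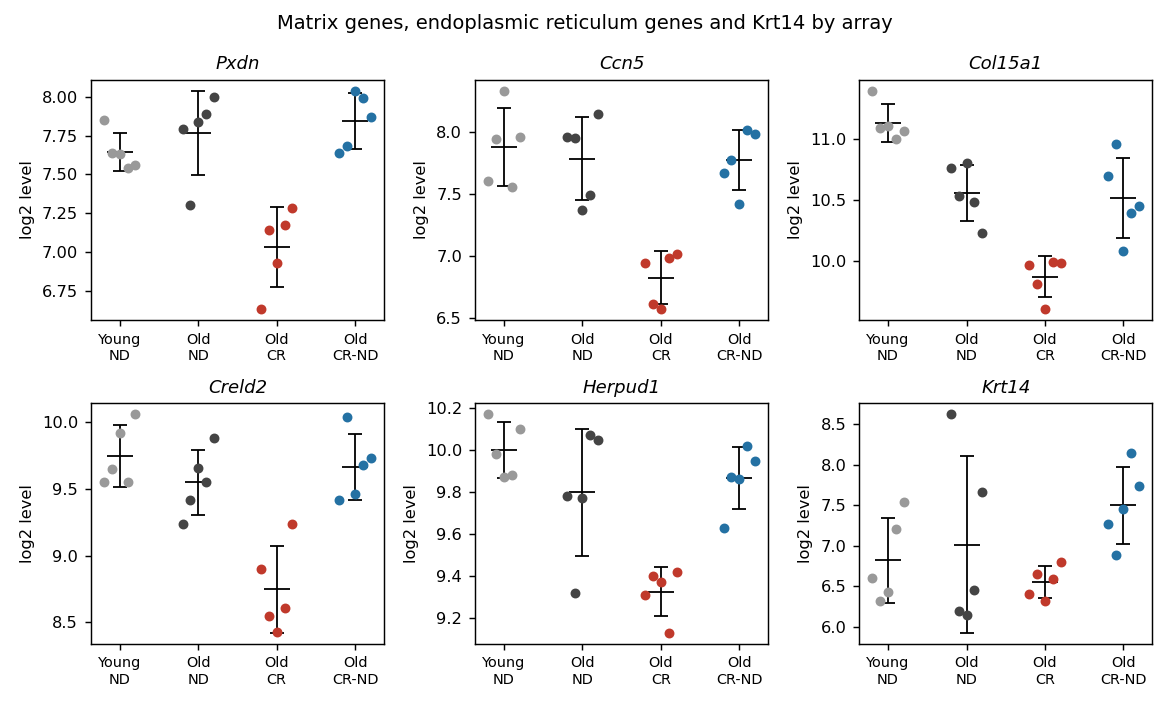
Log2 levels (vertical axis) of the matrix genes Pxdn, Ccn5 and Col15a1, the endoplasmic reticulum genes Creld2 and Herpud1, and the keratinocyte gene Krt14 in the 5 arrays of each of the 4 groups, with the mean and SD as bars. The Old CR points lie below all Old CR-ND points in each panel, and Krt14 spreads most widely in Old ND.

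Ces2g, a carboxylesterase that hydrolyses esters of lipids and drugs, rose most. It read 6.12, 6.49, 6.08, 6.34 and 7.24 in Old CR and 7.69, 8.02, 7.68, 8.17 and 8.18 in Old CR-ND. The groups did not overlap, and the rise was 1.49 ± 0.23 (2.82-fold, adjusted p = 0.0062), with 1.54 and 0.94 in the runs alone. Cacna2d3, an auxiliary subunit of voltage-gated calcium channels, read 5.09, 5.19, 5.00, 5.64 and 5.76 and then 6.70, 7.24, 5.82, 6.79 and 6.85. It rose by 1.34 ± 0.24 (2.54-fold, adjusted p = 0.0138), with Old CR-ND replicate 3 only just above the restricted range, and the call ended without Old CR replicate 3, Old CR-ND replicate 2 or Old CR-ND replicate 5 (adjusted p 0.0518 to 0.0612). Both refed means stood above Old ND, by 0.60 ± 0.23 for Ces2g and 0.71 ± 0.24 for Cacna2d3, and neither of these differences passed (adjusted p = 0.884 and 0.783).

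Pde2a, a phosphodiesterase of cyclic nucleotides, rose by 0.66 ± 0.11 (adjusted p = 0.0096), with 4.79 to 5.22 in Old CR and 5.44 to 6.0 in Old CR-ND. Rgs10, which shortens G-protein signals, rose by 0.56 ± 0.10 (adjusted p = 0.0142) from a narrow range of 6.35 to 6.46 to one of 6.82 to 7.02. Neither gene overlapped. The prosaposin-like Psapl1 rose by 1.00 ± 0.21 (adjusted p = 0.0444) with overlap, since Old CR-ND replicate 1 read 5.68 and the other refed arrays 6.34 to 7.22. The others were Serf1 (0.84 ± 0.17), the acid phosphatase Acp5 (0.75 ± 0.16), the aspartyl protease Bace2 (0.63 ± 0.13), the zinc finger factor Glis2 (0.59 ± 0.12) and the noncoding RNA AW112010 (0.57 ± 0.12), with adjusted p of 0.0273 to 0.0444, and of these Glis2 overlapped between the groups. The Rgs10 call ended without Old CR replicate 3 or Old CR-ND replicates 2 or 5, and those of Psapl1, Serf1, Acp5, Bace2, Glis2 and AW112010 ended without each of Old CR replicates 1, 2 and 3 and Old CR-ND replicates 2, 4 and 5 (adjusted p up to 0.131). The Psapl1 and Glis2 calls also ended with the mean of their 2 probe sets (adjusted p = 0.0985 and 0.177), and averaged probe sets gave 0.35 for Serf1 and 0.38 for Bace2.

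Genes that earlier results of these data had brought up were followed here in the refed mice. Of these 32 genes, 24 did not pass between refed and restricted. Those that passed were 7 falls (Ctla2a, Igfbp3, Lgr5, Fdps, Stard4, Nsdhl and Fdft1) and 1 rise (Col15a1). Not all 32 differed between Old CR and Old ND: Bcat1 read 4.01 to 4.22 in Old CR and 4.00 to 4.33 in Old ND. Postn, a matrix protein of remodelling tissue, read 7.21, 7.64, 7.42, 6.85 and 7.09 in Old CR and 9.91, 10.14, 7.14, 8.75 and 8.74 in Old CR-ND. Old CR-ND replicate 3 stayed at the restricted level, the others were above it, and the difference of 1.69 ± 0.51 did not pass (adjusted p = 0.184). The same array was the lowest refed array for the tendon-related Tnmd (7.29 against 8.40 to 10.08), the peptidase Cpe (6.95 against 7.53 to 8.46), Lrrc15 (5.87 against 6.63 to 8.53), the Wnt antagonist Dkk2 (6.24 against 6.86 to 7.79) and Col6a3 (9.09 against 9.36 to 10.07). Those differences were 1.41 ± 0.49, 1.32 ± 0.35, 1.10 ± 0.48, 1.05 ± 0.29 and 0.88 ± 0.25 in that order, with adjusted p of 0.284, 0.110, 0.434, 0.139 and 0.149. Lrrc15 also had 1 high refed array, Old CR-ND replicate 2 at 8.53, without which its difference was 0.71. Mgp, an inhibitor of mineralization, differed by 1.11 ± 0.25 without overlap (6.91 to 7.46 and 8.12 to 8.77) and just missed the threshold (adjusted p = 0.0580; 0.0273 when blocking on the run), and the chemokine Cxcl2 differed by 1.14 ± 0.32 (adjusted p = 0.145).

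For Postn, Tnmd, Cpe, Lrrc15, Dkk2, Col6a3, Mgp, Cxcl2 and Igfbp4 the refed mean lay between the means of Old CR and Old ND. Not all of the 32 genes did so. The refed means of Igf2, Lgr5, Ctla2a and Igfbp3 lay below both other means, and that of Mirg lay above both. Igfbp4 differed from Old ND by -2.51 ± 0.45 in Old CR (adjusted p = 0.0049) and by -0.71 ± 0.45 in Old CR-ND. Mgp gave -1.92 ± 0.25 and -0.81 ± 0.25. Postn gave -2.38 ± 0.51 and -0.69 ± 0.51, and Dkk2 gave -1.89 ± 0.29 and -0.84 ± 0.29. These pairs of values share the Old ND arrays.

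Rian and Meg3, noncoding RNAs of an imprinted locus, stayed nearer to the restricted level. Rian read 9.66, 10.24, 9.84, 9.70 and 9.39 in Old CR, 9.00, 9.26, 9.37, 9.21 and 9.28 in Old CR-ND and 7.88 to 8.51 in Old ND. The refed arrays thus lay between the other groups without overlapping either. The difference from Old CR was -0.54 ± 0.13 (adjusted p = 0.0800), and the difference from Old ND was 0.96 ± 0.13 (adjusted p = 0.0074), the only gene that passed between Old CR-ND and Old ND. Another of its 4 probe sets passed against Old CR when every probe set was tested (-0.80, adjusted p = 0.0449). Meg3 differed from Old CR by -0.49 ± 0.20 (adjusted p = 0.378) and from Old ND by 0.85 ± 0.20 (adjusted p = 0.378). The locus did not move together between refed and restricted mice. Of its 5 measured genes 3 differences were above 0 and 2 below, none passed, and the median was 0.10. Mirg, another noncoding RNA there, differed from Old CR by 0.15, with -0.24 and 0.93 in the runs alone.

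The means of C1qtnf3, Ddah1 and Cmah in the refed mice were also nearer to Old CR than to Old ND. The secreted C1qtnf3 differed from Old CR by -0.83 ± 0.33 and from Old ND by 1.44 ± 0.33, and Ddah1, which breaks down methylated arginine, by -0.70 ± 0.20 and 1.01 ± 0.20. Cmah, a sialic acid hydroxylase, differed by -0.19 ± 0.27 from Old CR, a sign that turned in the later run (0.54), and by 1.61 ± 0.27 from Old ND (adjusted p = 0.0581). Refed Cmah arrays (6.11 to 7.32) overlapped those of Old CR (5.99 to 7.28) and lay above all of Old ND (4.45 to 5.57). The imprinted transcription factor Plagl1 differed from Old CR by -0.31 ± 0.11 (adjusted p = 0.286). None of these 4 genes passed in either comparison of the refed mice.

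**Figure D5:**
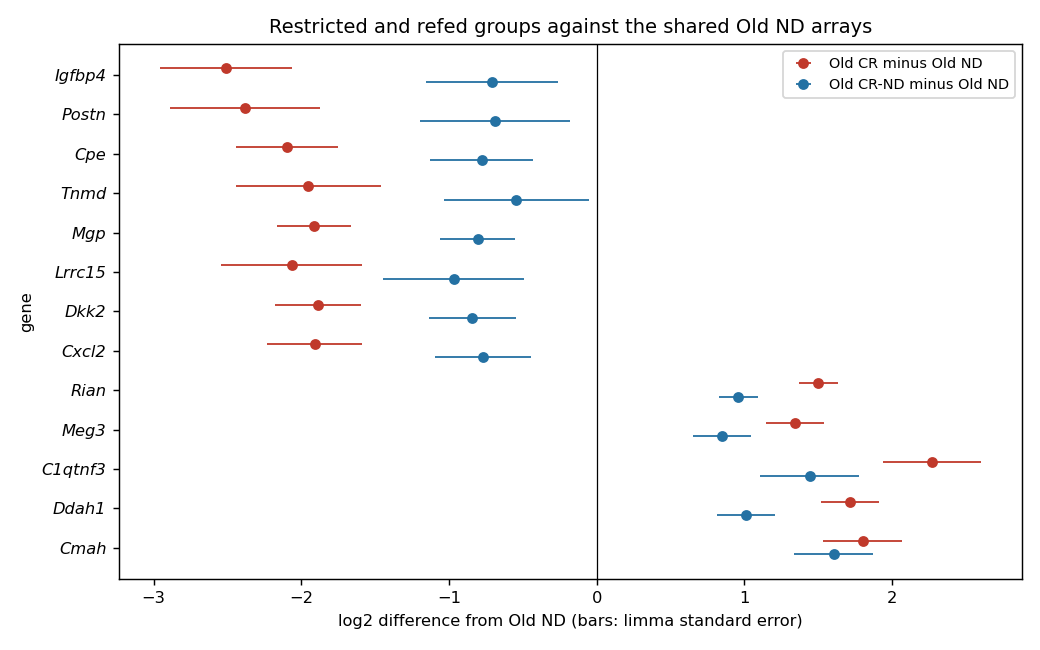
Log2 difference from Old ND (horizontal axis) of Old CR and of Old CR-ND for 13 genes, with bars for the standard error of limma and 5 arrays per group. The Old CR-ND points lie between 0 and the Old CR points for all 13 genes, and both differences of a gene share the Old ND arrays. The 13 were picked from 32 genes that earlier results had brought up, and not all 32 lay so.

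Most pathway lists tied to diet held no called gene. Differences were below 0 for 15 of 18 genes of branched-chain amino acid breakdown and 23 of 30 of FOXO and mTOR nutrient sensing. The same held for 16 of 26 glucocorticoid and fasting responsive genes, against 51.8% of all genes. In the other lists named here 8 of 19 clock, 9 of 22 fatty acid oxidation, 9 of 20 glycolysis and 10 of 24 adipogenic genes were below 0. The lists for FOXO and mTOR nutrient sensing (30 genes, median -0.11), glucocorticoid and fasting responsive genes (26, median -0.05), the circadian clock (19, median 0.03), fatty acid oxidation and ketone genes (22, median 0.03), glycolysis (20, median 0.02), branched-chain amino acid breakdown (18, median -0.14) and adipogenic genes (24, median 0.01) each had 0 called. Their leading members were values that did not pass: Ddit4, an inhibitor of mTOR, at -0.65 ± 0.16 (adjusted p = 0.0749), Sirt1, a nutrient-linked deacetylase, at -0.45 ± 0.15 (adjusted p = 0.240), Cpt1a, which admits fatty acids to mitochondria, at 0.52 ± 0.18 (adjusted p = 0.264), and Nr1d2 of the clock at -0.36 ± 0.11 (adjusted p = 0.184). The lipid droplet coat gene Plin2 came nearest, at 0.41 ± 0.09 (adjusted p = 0.0532), with 8.33 to 8.64 in Old CR and 8.69 to 9.17 in Old CR-ND, and passed once the run was a block (0.40, adjusted p = 0.0451).

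Immune lists held no called gene either. In antigen presentation 18 of 21 differences were above 0 with a median of 0.15, and in cytokines and chemokines 24 of 32 with a median of 0.16. Over all genes 48.0% were above 0. Without Old CR replicate 1 the medians of these 2 lists were 0.10 and 0.11, and the latter was also 0.098 without Old CR-ND replicate 4. H2-Ab1, a class II chain, differed by 1.18 ± 0.30 (adjusted p = 0.0921), and the chemokine Ccl8 by 0.99 ± 0.26 (adjusted p = 0.103). With the run as a block both passed (1.04, adjusted p = 0.0240, and 0.88, adjusted p = 0.0446), and H2-Ab1 also passed with the mean of its 3 probe sets (0.61, adjusted p = 0.0435). The macrophage and dendritic cell markers given above were above 0 with them, and their part was not tested. None passed in the Hedgehog list (15 genes, median -0.02), the TGF-beta list (23, median -0.01), the BMP list (24, median -0.11), the type I interferon list (24, median 0.02) or among immediate early and stress genes (28, median -0.00), where the transcription factor Egr2 differed by 0.52 ± 0.13 (adjusted p = 0.0898).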

How the data were processed

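RNA of dermal fibroblasts sorted from 20 female mice was measured on 1 Affymetrix array per mouse. The authors made the deposited log2 values, 1 per probe set and array, with RMA of the affy package, per the submitters' processing notes, whose versions are not given in the sources used here. RMA normalizes quantiles over arrays, which removes differences in total RNA between groups. Probe sets that name 1 gene were used (28898 of 45141, while 551 name several and 15692 none), with symbols updated through Entrez numbers for 28689 of them, and the brightest probe set by mean over the 20 arrays stood for each of 17097 genes. Groups come from the labels, which give 5 biological replicates per group and no replicate numbers, so replicates are numbered in accession order. Collection day, which the labels mention without giving it per mouse, was not used.

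limma 3.58.1 (R 4.3.3; lmFit, eBayes) fitted a mean for each group to all arrays, with 16 residual and 4.19 prior degrees of freedom and a two-sided moderated test. P-values were adjusted by Benjamini-Hochberg over 17097 genes, with a threshold of 0.05, and the fit was tested on simulated data. SD values are over 5 arrays. The comparison and the gene lists (37 pathway lists, 15 cell type lists) were chosen with earlier results of these data known. The rule named, in each direction, the 15 called genes that changed most, if brighter in either group than the median gene and not clone symbols; up to 4 called members, or 2 where none passed, of each list; sorting markers, genes that earlier results had brought up, up to 3 bright genes of each cell type list, and 3 genes most like the leading gene. Called genes outside the rule, Idi1, Sc5d, Hmgcs1, Msmo1, Manf, Sdf2l1, Srebf2, Krt14 and Krt79 were named after their values were seen. Alternatives were filters on dim genes, all or averaged probe sets, quantile normalization once more, centring, trended and robust eBayes, array weights, only the arrays compared, the run as a block or alone, each array left out and other thresholds. Dropping Old ND replicate 2, whose values spread least, was added after the data were seen.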

Additional observations from a re-analysis of the deposited data

Results flagged for a closer look

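Among 214 groups of 5 arrays examined for the genes named, 7 held an array that stood apart by Dixon's criterion, and chance alone marks about 1 in 20 groups. Nsdhl was low in Old CR replicate 5 (6.70, against 7.10 to 7.25 in the other restricted arrays), and so was Babam2 (9.08, against 9.45 to 9.57). Vps26a was low in Old CR-ND replicate 5 (7.63, against 8.06 to 8.17). Anapc5 was high in Old CR-ND replicate 1 (9.90, against 9.58 to 9.67). Hmgcs1 was low in Old CR-ND replicate 5 (3.89, against 4.36 to 4.48) and high in Old CR replicate 4 (4.51, against 4.20 to 4.26). C1qtnf3 was high in Old CR replicate 4 (9.19, against 8.35 to 8.55). Outside the genes used, 20 of 15692 probe sets that name no gene passed between Old CR-ND and Old CR when all 45141 probe sets were tested, 8 higher and 12 lower, among 71 that passed in total.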

How the results depend on the processing

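All 57 differences kept their sign under each setting that tested them, which was likely beforehand because the genes were chosen on the same arrays. The count of genes past the threshold (57, of which 21 higher and 36 lower) was 235 with array weights (96 and 139), 120 with the run as a block (47 and 73), 10 in the first run alone (2 and 8), 1 in the second alone (0 and 1, where Old CR has 1 array that was assumed to vary like the others), 19 at an adjusted p of 0.01 (6 and 13) and 149 at 0.10 (51 and 98). The higher genes alone numbered 33 without genes below the median level and 37 with quantile normalization once more. Leaving out 1 array gave 17 to 110 genes, 5 to 39 higher and 12 to 71 lower. Signs turned for genes with differences near 0 that were not called: Hmgcs1 (-0.0750 in the second run, and -0.0295 to 0.1180 without 1 array), Msmo1 (0.0000 with averaged probe sets), Cmah (0.5350 in the second run), Cd34 (0.0073 with quantile normalization once more, and -0.0735 to 0.0190 without 1 array), Ptprc (0.0029 with array weights, 0.0158 in the first run, and -0.0305 to 0.0145 without 1 array), Ctla2b (0.0550 in the second run) and Dcn (0.0378 with quantile normalization once more). The cause was not tested. No paired analysis was possible because the labels give no replicate numbers. Arrays have no read depth, and their number, 5 per group, limits the precision.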

Other observations

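Lists of general cell function moved little between the refed and the restricted mice. Over all genes 51.8% of differences were below 0 and 48.0% above. Of 41 cytosolic ribosomal protein genes 35 differences were below 0, with a median of -0.07 and 0 called, and Rps23 (-0.21 ± 0.09, adjusted p = 0.429) was the lowest in p. Of 42 oxidative phosphorylation genes 27 were below 0, with a median of -0.05 and 0 called. Of 32 genes of DNA replication and mitosis 22 were above 0, with a median of 0.07 and 0 called, and the replication helicase subunit Mcm5 differed by 0.35 ± 0.12 (adjusted p = 0.237). Of 13 fibroblast markers none passed, with a median of 0.06, and the proteoglycan Dcn was near the top of the scale in both groups (-0.06 ± 0.06).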
